A study of Mus musculus with 2 samples.

Results

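The 6 genes described here encode parts of the heart's sodium handling: the sodium pump beta subunit genes Atp1b1, Atp1b2 and Atp1b3, the phospholemman gene Fxyd1, and the sodium-calcium exchanger genes Slc8a1 and Slc8a2. They were picked out by gene symbol, with no threshold on a measured value, and they are 6 of the 55536 annotated mouse genes in the gene tables. The choice was made with earlier results of these data known, so their count at a threshold is a description only. Total RNA was sequenced from heart tissue of 2 adult female B6CASTF1/J mice, whose parents are of the C57BL/6J and CAST/EiJ strains, aged 8 to 10 months. The labels number the animals 1 (here replicate 1) and 3 (here replicate 2). There is 1 group with no treatment, so the data give the level of each gene and the spread between 2 animals, and no test between groups was possible. Levels are in TPM, transcripts per 1000000 with the length of each transcript divided out, from an alignment-derived table and from a second, FASTQ-derived table of the same libraries.

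The sodium pump moves sodium out of the cell and potassium in, using ATP. Its catalytic alpha subunit needs a glycosylated beta subunit to fold and reach the plasma membrane, and small membrane proteins of the FXYD family adjust its activity. In cardiomyocytes phospholemman restrains the pump until it is phosphorylated, and the exchanger Slc8a1 uses the sodium gradient that the pump makes to carry calcium out after each beat.

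The gene tables held 42223411 and 40553237 expected counts in replicates 1 and 2. All 6 cardiomyocyte markers were at 1 TPM or more, with summed levels of 31652 and 27809 TPM. Before any centring, marker sums differed most between the animals for atrial genes (1223 and 717 TPM) and red blood cell genes (3478 and 2255 TPM). Other sums differed too, among them endothelium (138.5 and 102.6 TPM). Those of smooth muscle (45.0 and 46.5 TPM) and skeletal muscle (9.29 and 10.3 TPM) were higher in replicate 2. The part of these cell types in the values below was not tested. In bulk tissue, fewer cells of a type and less RNA per cell cannot be told apart.

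Of the 6 genes, 5 reached 1 TPM in both animals, where 48.7% of the 22028 protein-coding genes did, and Slc8a2 did not. Fxyd1 was the highest, followed by Slc8a1, Atp1b1, Atp1b3, Atp1b2 and Slc8a2. The 2 animals' ranges of neighbouring genes did not overlap at any step of this order, in either table. The narrowest step of the alignment-derived table was Slc8a1 over Atp1b1, 1.65-fold in replicate 1 and 1.59-fold in replicate 2, and in the FASTQ-derived table the same step was 1.23-fold and 1.18-fold.

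**Figure D1:**
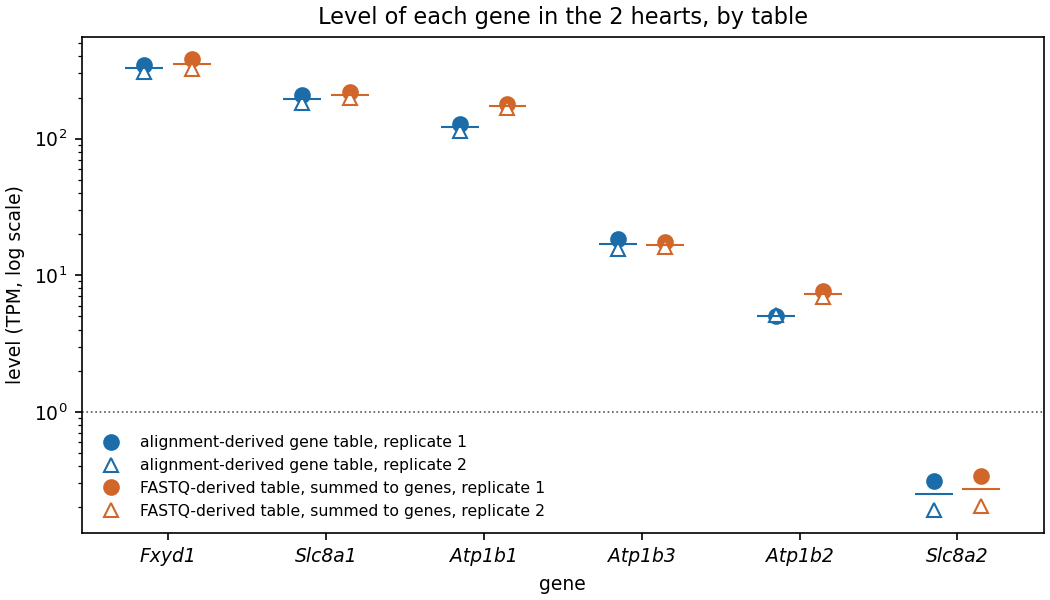
Level of each gene in TPM on a log axis, with filled circles for replicate 1, open triangles for replicate 2, short lines for the mean of the 2 animals, and blue and orange for the alignment-derived and FASTQ-derived tables. The dotted line marks 1 TPM, and Slc8a2 is the only one of the 6 genes below it.

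Among the beta subunit genes, Atp1b1 carried most of the RNA. Atp1b1 (ENSMUSG00000026576.12, chr1:164437109-164458355, minus strand, mm10) encodes the most widely expressed beta subunit. Its level was 126.98 TPM in replicate 1 against 114.59 TPM in replicate 2, from 9593 and 9042 expected counts, a mean of 121 ± 8.76 TPM (SD, n = 2). That placed it at rank 444 of the protein-coding genes by mean TPM.

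Atp1b3 (ENSMUSG00000032412.8, chr9:96332655-96364442, minus strand) encodes another beta subunit found in many tissues. It had 18.29 and 15.65 TPM in replicates 1 and 2, from 1152 and 1004.87 expected counts. Atp1b2 (ENSMUSG00000041329.13, chr11:69599736-69605942, minus strand) encodes the beta subunit first described as an adhesion molecule of glia. It had 5.03 and 5.09 TPM, from 475 and 486 expected counts, and was the closest of the 6 between the animals before centring on the median gene.

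Atp1b1 made up 84.5% of the summed TPM of the 3 beta genes in replicate 1 and 84.7% in replicate 2, Atp1b3 12.2% and 11.6%, and Atp1b2 3.35% and 3.76%. The shares of the 2 animals were close for all 3 genes. Atp1b1 was 7.13 ± 0.27-fold above Atp1b3 (SD, n = 2), and Atp1b3 was 3.36 ± 0.40-fold above Atp1b2, in the alignment-derived table. In the FASTQ-derived table these folds were 10.2 and 10.5 for the first pair, and 2.30 and 2.32 for the second. The SDs thus hold the spread between the animals and not the difference between the tables. Atp1b3 made up 8.59% and 8.41% of the FASTQ-derived beta TPM. The translated coding sequences of the main transcripts were identical at 43.2% of aligned residues for Atp1b1 and Atp1b2, 38.7% for Atp1b1 and Atp1b3, and 49.1% for Atp1b2 and Atp1b3. The transcripts of these pairs shared 0 words of 31 bases.

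The 2 tables differed most, among the 6 genes, for Atp1b1 and Atp1b2. The alignment-derived level of Atp1b1 was 0.71 and 0.69 times the FASTQ-derived levels of 179 and 167 TPM, and that of Atp1b2 was 0.66 and 0.74 times the FASTQ-derived 7.60 and 6.88 TPM. Of 10721 expressed protein-coding genes, 95.03% were closer between the tables than Atp1b1 and 94.77% closer than Atp1b2. None of the 6 genes was 2-fold apart between the tables, where 0.746% of the 10721 were, a threshold chosen after these values had been seen. The remaining 4 genes were closer, for example Fxyd1 at 0.91 and 0.94 times its FASTQ-derived level.

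For these genes the disagreement lay in short transcripts. Atp1b1-201 (2580 bases, 6 exons) is the full-length coding transcript, and Atp1b1-203 (628 bases, 3 exons) is annotated with an incomplete end of its coding sequence. In the alignment-derived table Atp1b1-201 held shares of 88.1% and 92.2% and Atp1b1-203 held 10.2% and 7.64%. In the FASTQ-derived table Atp1b1-201 held 55.3% and 56.8% and Atp1b1-203 held 44.4% and 42.9%.

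The level of Atp1b1-201 itself was closer between the tables than its share, at 111.88 and 105.65 TPM in the alignment-derived table and 98.8 and 95.1 TPM in the FASTQ-derived one. Atp1b1-203 stood at 12.96 and 8.75 TPM against 79.3 and 71.7 TPM. The last part of Atp1b1 overlaps 617 bases of the span of Nme7 on the opposite strand, which had 2.00 and 1.85 TPM. Whether strand was used in the counting is not stated, so reads there cannot be told apart.

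Atp1b2 had the same pattern at a lower level. Atp1b2-201 (2842 bases) held 92.6% and 91.7% of the TPM in the alignment-derived table, and 52.0% and 59.6% in the FASTQ-derived table. There, Atp1b2-204, a 711-base transcript with no coding sequence, held 36.4% and 20.2%, and Atp1b2-203, a 993-base transcript with an incomplete start, held 9.37% and 16.3%. Both stood at 0 counts in the alignment-derived table. Atp1b3 showed no such split, with Atp1b3-201 at 98.5% and 100% in the alignment-derived table and 100% in both animals in the FASTQ-derived one.

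**Figure D2:**
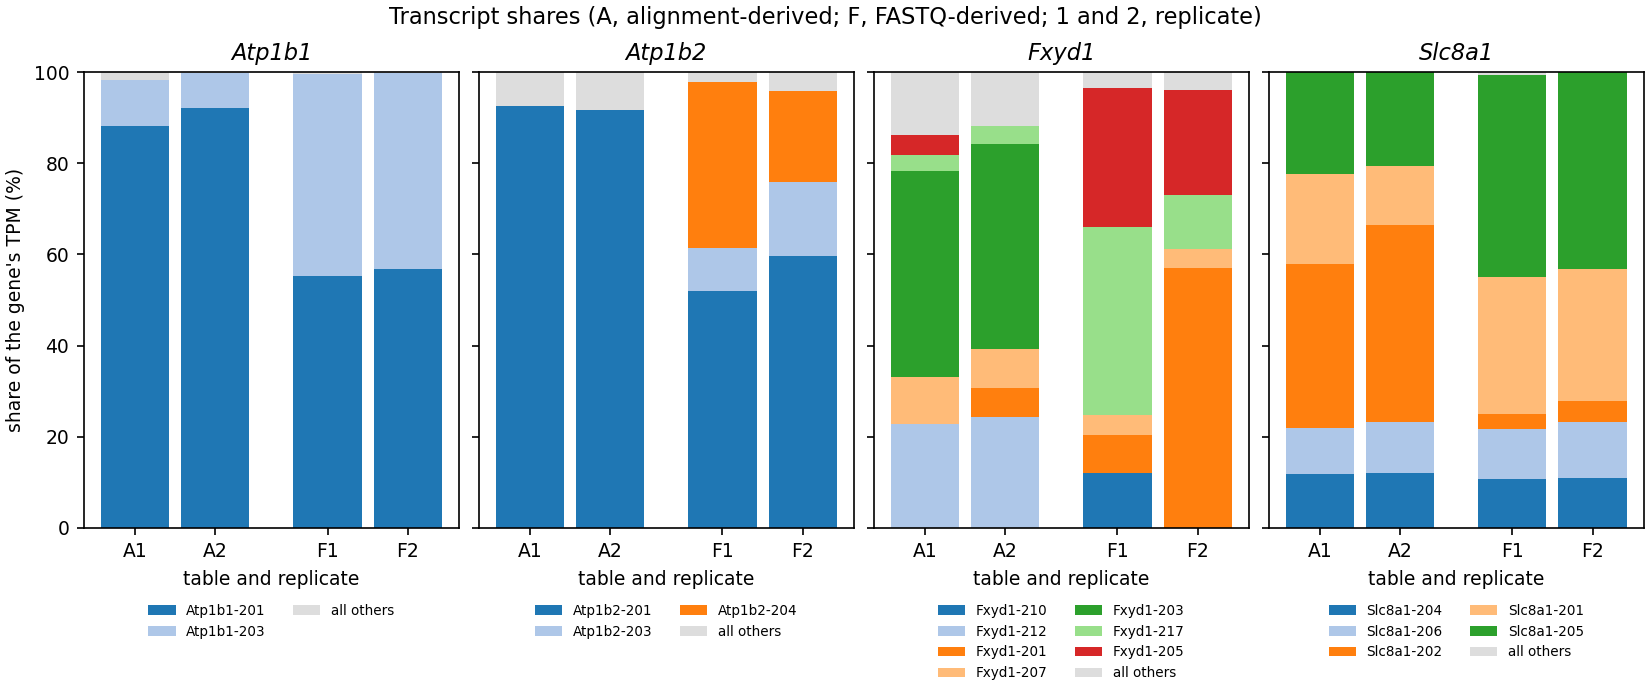
Share of the gene's TPM held by each transcript of 10% or more in any column, stacked to 100%, for 4 genes in the alignment-derived (A) and FASTQ-derived (F) tables and replicates 1 and 2. The columns of a table resemble each other more than the columns of an animal for Atp1b1 and Slc8a1, and the Fxyd1 shares also differ between F1 and F2.

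Fxyd1 (ENSMUSG00000036570.14, chr7:31051678-31057199, minus strand) encodes phospholemman, the FXYD protein of heart and skeletal muscle and a target of protein kinases A and C. Its level was 348.03 TPM in replicate 1 against 305.8 TPM in replicate 2, from 4858 and 4379 expected counts, a mean of 327 ± 29.9 TPM (SD, n = 2). It ranked 172 among the protein-coding genes. It held 94.8% and 95.3% of the summed TPM of the 7 FXYD genes, and the next of that family, Fxyd5, stood at 10.4 and 8.13 TPM.

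The coding sequence of Fxyd1 is shown because 10 of its 17 annotated transcripts share it unchanged, so the protein they encode does not depend on which of them a read was assigned to. It spans chr7:31051968-31054366 on the minus strand of mm10, with sequence from the GENCODE M21 transcripts, and is 276 bases long in 6 exons without the stop codon. The first run of capitals (bases 85 to 96) marks the codons of the F-x-Y-D motif that names the family. The second run (bases 253 to 264) marks the codons of the R-R-x-S motif, a kinase A type of site in the cytoplasmic tail.
Fxyd1 coding sequence: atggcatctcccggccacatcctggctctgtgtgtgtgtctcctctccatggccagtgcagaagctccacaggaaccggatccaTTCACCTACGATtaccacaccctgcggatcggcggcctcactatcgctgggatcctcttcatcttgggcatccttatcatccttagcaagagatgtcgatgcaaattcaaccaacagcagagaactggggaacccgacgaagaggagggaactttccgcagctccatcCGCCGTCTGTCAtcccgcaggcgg

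The 2 tables gave different leading transcripts for Fxyd1. In the alignment-derived table Fxyd1-203 held 45.3% and 44.9% of the TPM and Fxyd1-212 held 22.7% and 24.2%, and both stood at 0 in the FASTQ-derived table. There, Fxyd1-201 held 8.18% in replicate 1 and 57.0% in replicate 2, Fxyd1-217 held 41.3% and 11.7%, and Fxyd1-205 held 30.6% and 23.2%. Fxyd1-210 held 12.1% in replicate 1 and 0 in replicate 2 of that table, and Fxyd1-207 held 10.3% and 8.58% in the alignment-derived one.

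All of these transcripts encode the sequence printed above. Summed, the 10 transcripts that share it held 97.2% and 97.4% of the gene's TPM by the alignment-derived table and 96.6% and 96.2% in the FASTQ-derived table. The grouping by coding sequence was made after the shares of single transcripts had been seen. Fxyd1-208 encodes a sequence 75 bases shorter that keeps the R-R-x-S motif and lacks the F-x-Y-D motif, and it held 1.02% and 0.50% in the alignment-derived table and 2.31% and 2.95% in the FASTQ-derived one. The 5 transcripts without a coding sequence, all with a retained intron, held 1.81% and 1.67% in the alignment-derived table.

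Slc8a1 (ENSMUSG00000054640.15, chr17:81373105-81738377, minus strand) encodes the exchanger of the cardiomyocyte membrane. Its level was 209.46 TPM in replicate 1 against 182.02 TPM in replicate 2, a mean of 196 ± 19.4 TPM (SD, n = 2), and ranked 287. Its transcripts are long, and its 32236 and 28823 expected counts were the most of the 6 genes.

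Slc8a2 (ENSMUSG00000030376.8, chr7:16129826-16161063, plus strand), an exchanger gene best known from neurons, had 0.31 and 0.19 TPM. These rest on 49 and 34 expected counts, with 95% Poisson intervals of 36.3 to 64.8 and 23.5 to 47.5 counts that cover counting error only. Neuron markers were low in the same hearts: 0 of 7 reached 1 TPM in both animals, and their summed level was 1.06 TPM in each. Dbh, an enzyme of noradrenaline synthesis, led them with 0.67 and 0.45 TPM from 55 and 37 counts, above Slc8a2 in both animals, and Th, another enzyme of that route, was at 0 counts in both. Of 6 Schwann cell and glia markers 0 did, with sums of 2.56 and 1.89 TPM. The part of such cells in the levels of Slc8a2 and Atp1b2 was not tested.

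Slc8a1 held 99.8% of the summed TPM of Slc8a1, Slc8a2 and Slc8a3 in both animals, and Slc8a3 stood at 0.06 and 0.09 TPM. Slc8a1 was 676-fold above Slc8a2 in replicate 1 and 958-fold in replicate 2, with Slc8a2 at the few counts given above. Translated, Slc8a1-203 and Slc8a2-202 were identical at 67.5% of aligned residues, and the transcripts of the 2 genes shared 0 words of 31 bases. Slc8a1-203 is not a leading transcript here, with 0 TPM in both animals in the alignment-derived table. The 2 transcripts of Slc8a2 could not be ordered at this depth. Slc8a2-202 held 51.6% and 100% of TPM in the alignment-derived table and 27.1% and 57.8% in the FASTQ-derived one, and Slc8a2-201 held the rest.

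The large cytoplasmic loop of the exchanger is encoded in part by a run of short exons that tissues join in different combinations. They are shown because the annotated Slc8a1 transcripts fall into 4 groups by the set they hold. All lie on the minus strand of chromosome 17 (mm10, GENCODE M21) and are coding. The 21-base exons at chr17:81442203-81442223 and chr17:81441861-81441881 are alternatives in these transcripts, and capitals mark the 11 of 21 positions at which they differ. The other exons lie at chr17:81445487-81445593 (107 bases), chr17:81441773-81441790 (18 bases), chr17:81441652-81441666 (15 bases) and chr17:81437745-81437813 (69 bases).
107-base exon: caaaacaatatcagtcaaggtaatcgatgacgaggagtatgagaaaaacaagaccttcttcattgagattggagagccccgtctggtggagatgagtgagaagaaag
21-base exon of Slc8a1-201, Slc8a1-202 and Slc8a1-206: CCCTgttgtTGaatgAGCtTG
21-base exon of Slc8a1-203: GTGGgttgtCAaatgTCTtAT
18-base exon: gtggcttcacattaacag
15-base exon: gaaaagagatgtatg
69-base exon: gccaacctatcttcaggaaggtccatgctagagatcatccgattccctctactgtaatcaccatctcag

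Slc8a1-201, Slc8a1-202 and Slc8a1-206 hold the 107-base, first 21-base, 18-base, 15-base and 69-base exons. In the alignment-derived table they had 66.1% and 67.4% of the TPM together, and 44.4% and 45.8% in the FASTQ-derived table. Slc8a1-203, with the other 21-base exon, had 0 counts in both animals in the alignment-derived table, and 0.51% and 0 of the TPM in the FASTQ-derived one. Slc8a1-204 lacks both 21-base exons and the 15-base exon, and it had 11.7% and 12.1% of the TPM against 10.8% and 11.0% in the FASTQ-derived table.

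Slc8a1-205 is a 2017-base transcript that ends with the large 1830-base exon, with an incomplete coding end, and so holds none of the short exons. It had 22.2% and 20.6% of the TPM in the alignment-derived table and 44.3% and 43.2% in the FASTQ-derived one. Among the 5 transcripts that go on past the large exon, those with the full set of short exons held 84.9% and 84.8% in the alignment-derived table. In the FASTQ-derived one they held 79.8% and 80.7%. Of the gene's expected counts, that full set took 43.7% and 44.0%, and Slc8a1-204 took 47.0% and 47.5%. Slc8a1-204 is also the only transcript with the 15963-base last exon, so its share rests on that exon as well as on the short ones. These exon groups, too, were drawn up after the transcript shares had been seen. The large exon is known to give rise to a circular RNA in mouse heart. The tables list linear transcripts, so reads of a circle could not be told apart from those of Slc8a1-205 or the other transcripts.

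Within the full set, the tables divided the RNA differently. Slc8a1-202 held 36.1% and 43.2% of TPM in the alignment-derived table and 3.30% and 4.53% in the FASTQ-derived one, while Slc8a1-201 held 19.9% and 13.0% against 30.2% and 29.0%. Slc8a1-201 and Slc8a1-202 share 1 coding sequence of 2910 bases. Slc8a1-206 held 10.1% and 11.2% against 10.9% and 12.2%. Slc8a1-204, 18464 bases long because of a last exon of 15963 bases, took 47.0% and 47.5% of the gene's expected counts while holding the 11.7% and 12.1% of TPM given above, since TPM divides by length.

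**Figure D3:**
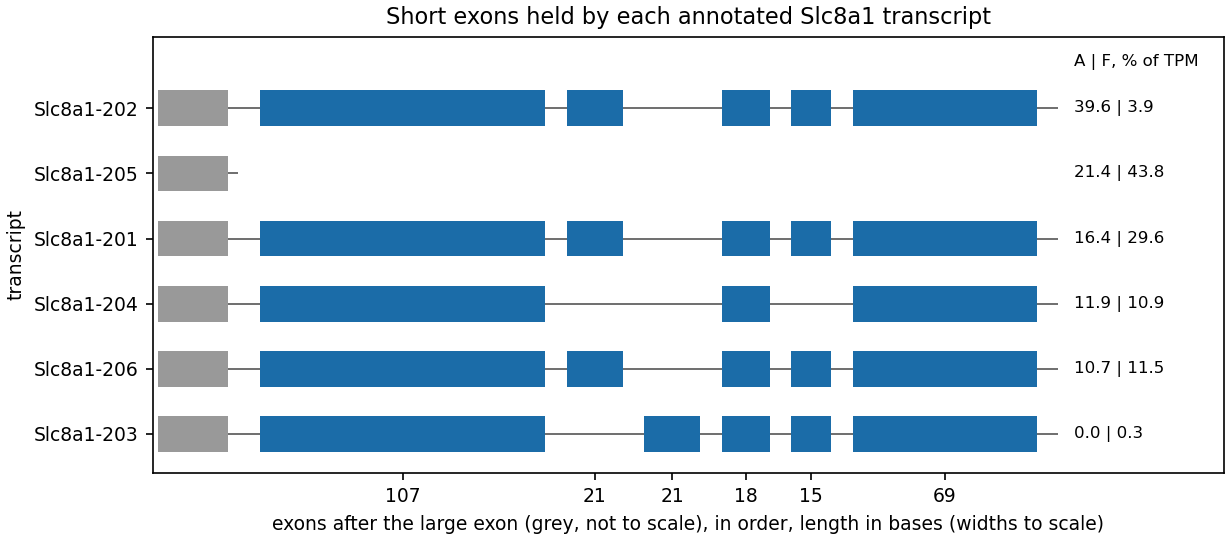
Exons of the spliced loop region (blue, widths to scale) held by each annotated Slc8a1 transcript after the large exon (grey, shortened), with the mean share of the gene's TPM over 2 animals in the alignment-derived (A) and FASTQ-derived (F) tables at the right. Slc8a1-203 is the only row with the second 21-base exon, at 0 in A and 0.25% in F, and Slc8a1-205 stops before the short exons.

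The 2 hearts differed little in these genes. Ratios of TPM + 0.1 were taken as replicate 1 over replicate 2 and centred on the median gene, over 11876 genes that averaged at least 1 TPM and had 20 or more expected counts in all. None of the 5 genes that passed this filter was 2-fold apart, where 1.41% of the 11876 were. The centred log2 ratio was -0.03 for Atp1b1, -0.20 for Atp1b2, 0.04 for Atp1b3, 0.004 for Fxyd1 and 0.02 for Slc8a1. Its sign held under every alternative run for Atp1b2 but not for the other 4, and for Atp1b1 it changed only without centring. For Atp1b2 it was -0.011 in the FASTQ-derived table and -0.017 without centring. Both are smaller in size than that gene's standard error from counting, 0.093. The main value and the other alternatives, -0.18 to -0.23, are larger than it. That error holds no spread between animals, so a sign that held does not by itself show a difference between the animals. Slc8a2 did not pass the filter.

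The median gene was 0.18 higher in replicate 1 on the log2 scale before centring. Without centring, 5 of the 6 genes were higher in replicate 1, by 0.15 for Atp1b1, 0.22 for Atp1b3, 0.19 for Fxyd1 and 0.20 for Slc8a1, and by 0.50 for Slc8a2. The deposited credibility intervals of the 2 animals, of unstated level, lay apart for Atp1b1, Atp1b3, Fxyd1 and Slc8a1. Those intervals hold no variation between animals, and they were compared without centring. For Slc8a1 the TPM of 209.46 and 182.02 lay above the upper bounds of 208.6 and 181.4 in replicates 1 and 2. Atp1b2 had the widest centred difference of the 5, and 63.9% of the compared genes were closer between the animals than it was.

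**Figure D4:**
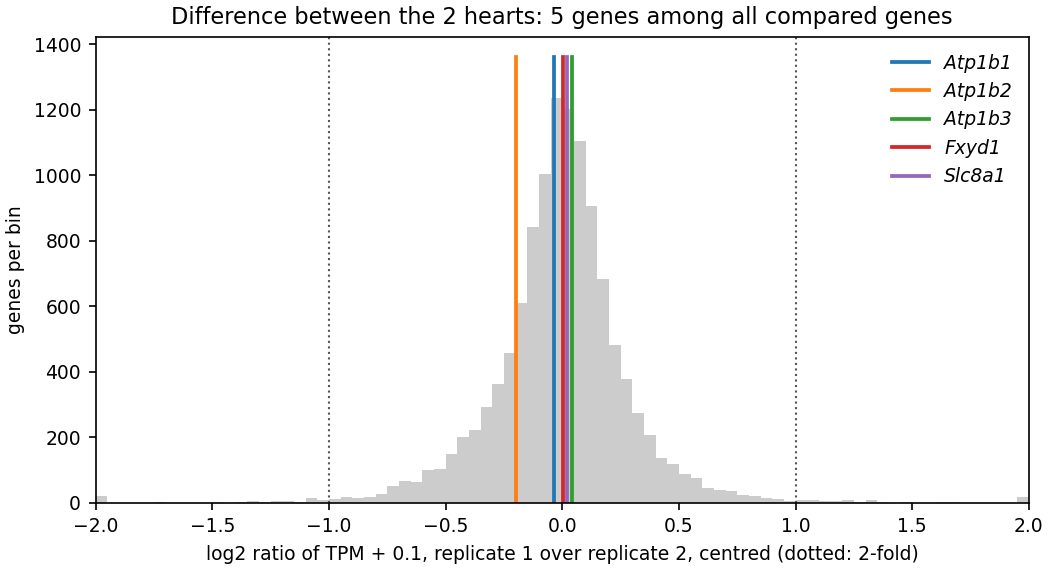
Number of compared genes by log2 ratio of TPM + 0.1, replicate 1 over replicate 2, centred on the median gene, in bins of 0.05 with all values beyond 2 placed in the outermost bins. Coloured lines mark 5 genes, which lie between -0.20 and 0.04, inside the dotted 2-fold limits.

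Of 52 other genes of sodium and calcium transport and its partners and regulators, 23 were at 1 TPM or more in both animals, where 48.7% of all protein-coding genes were. Of the 25 that could be compared between the animals, 0 were 2-fold apart, where 97 of 10967 compared protein-coding genes were. By group, 7 of 16 sodium pump genes reached 1 TPM, and Atp1a4 and Fxyd4 were at 0 counts in both libraries. Of the other exchangers of sodium and calcium, 1 of 7 did: Slc8b1, the mitochondrial exchanger, with 3.17 and 4.04 TPM. The next, Slc24a3, had 0.78 and 1.04 TPM. Slc8a1 was thus the only gene of the Slc8a and Slc24a families in these lists at 1 TPM or more in both animals.

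Among sodium-proton exchangers and partners 4 of 12 reached 1 TPM. Chp1, a partner protein of plasma membrane exchangers, had 31.19 and 24.08 TPM. Of the bicarbonate and chloride carriers 3 of 7 did, led by the sodium-bicarbonate cotransporter Slc4a4 at 12.92 and 11.99 TPM and its relative Slc4a7 at 5.70 and 4.85 TPM, and Slc4a5 was at 0 counts in both.

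The plasma membrane calcium pumps, the other route of calcium out of the cell, had 2 of 4 genes at 1 TPM. Atp2b1 had 23.67 and 20.15 TPM and Atp2b4 7.65 and 5.87 TPM, all below both values of Slc8a1. In the group of anchors, kinases and regulators 6 of 6 reached 1 TPM. Pln, which restrains the calcium pump of the sarcoplasmic reticulum, had 3191.69 and 2815.3 TPM, and Prkaca, a catalytic subunit of protein kinase A, 140.59 and 115.03 TPM.

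Genes nearest in level were found by distance of log2(TPM + 0.1) over the 2 samples, which is a likeness of level only. They were Prkar1a and Fsd2 for Atp1b1, Ogfrl1 and Aldh1a1 for Atp1b2, Smarca4 and Map2k1 for Atp1b3, Acsl1 and Tpi1 for Fxyd1, Rps19 and Mpc2 for Slc8a1, and Ltb and Il1b for Slc8a2. The distances were at most 0.031 on the log2 scale.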

How the data were processed

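Hearts of 2 animals (1 group, 1 library each) were measured by total RNA sequencing with a directional kit, 300 ng of input, ERCC spike-ins and ribosomal RNA reduced, per the labels. The deposited description files name mm10 and GENCODE M21. The sources used here do not give the aligner, the quantification tools or the strand setting. Per the file headers, the alignment-derived tables hold expected counts, which need not be whole, TPM, FPKM, posterior mean TPM and an isoform percent. The credibility bounds were used as deposited signal values, and lengths as the deposited other columns. Per the file headers, the FASTQ-derived table gives TPM and estimated counts, which were summed to genes here. Its totals were 43782858 and 41468698 estimated counts.

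The members and gene lists were chosen with earlier results of these data known. The rule for named genes took all 6 members, their transcripts of 10% or more of the gene's TPM in either table, the 2 highest genes of each list group, those at 0 counts in both libraries, and the 2 genes nearest in level to each member. Some genes that the rule names are not reported here. Fxyd5, Slc8a3, Fxyd1-208, Slc8a1-203, Dbh and Th were named outside it, after their values were seen. The same holds for the grouping of transcripts by coding sequence and by exons, where other groupings were possible, for the share of Fxyd1 in its family, and for the fold used between the tables, which was first set at a lower value that only Atp1b1 and Atp1b2 of the 6 genes passed.

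Shares, ratios and SDs were computed with Python 3.11.15, pandas 2.3.3 and numpy 2.4.6, Poisson intervals with scipy 1.17.1, and alignments of translated sequences with Biopython 1.88. The formula for the ratios, written out separately, was tried on simulated counts. These held counting error and no spread between animals, so the ratios reported here were not themselves checked. With 2 animals a two-sided sign-flip test cannot go below 0.5, so no p-value is given. Both libraries carry the same donor identifier in the labels. It was taken to name the strain, so n = 2 rests on their different animal numbers alone, and the SDs may be technical if that reading is wrong. Counting error near a count of 0 was taken as 3 counts, or 0.0711 and 0.0740 counts per 1000000. Reads of CAST/EiJ alleles may be assigned less well to mm10, and no allele-specific values were analysed. Alternatives covered the table, estimate, unit, denominator, thresholds, pseudocount, centring and each animal left out.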

Additional observations from a re-analysis of the deposited data

How the results depend on the processing

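No paired analysis was possible because the series has 1 group. Of 85 alternative values that used both animals, 49 stayed within a set limit and 36 moved beyond it. For levels, shares and ratios the limit was the spread between the animals or the counting error. For counts of genes it was 1.5 times the main count. The counts of genes at the threshold and of genes 2-fold apart were within 1.5 times the main count under every alternative run. Leaving out an animal says nothing of the stability of a mean of 2, which by construction cannot then move beyond 1 SD. With 1 animal left out, 5 of the 6 genes reached 1 TPM either way. Of the 52 other genes of transport and its regulators, 26 and 27 did without replicates 1 and 2.

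Mean levels were 173 TPM for Atp1b1 and 7.24 TPM for Atp1b2 in the FASTQ-derived table, and 5.43 TPM for Atp1b2 by posterior mean. Rescaled to nuclear protein-coding genes, which held 37.8% and 33.3% of TPM, levels were 340.04 for Atp1b1, 14.3 for Atp1b2, 47.7 for Atp1b3, 920 for Fxyd1, 550 for Slc8a1 and 0.70 for Slc8a2, and in FPKM, another unit, 98.5 for Atp1b1, 4.13 for Atp1b2, 13.8 for Atp1b3, 266 for Fxyd1 and 159.5 for Slc8a1. Both shifts follow from the construction of the scale. The Atp1b1 share of beta subunit TPM was 87.8% in the FASTQ-derived table, 84.2% by posterior mean and 85.7% of expected counts, and the Slc8a1 share was 99.79% by posterior mean.

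The log2 ratio of the animals without centring was 0.15 for Atp1b1, -0.017 for Atp1b2, 0.22 for Atp1b3, 0.19 for Fxyd1 and 0.20 for Slc8a1. In expected counts per 1000000 it was -0.092 for Atp1b1 and -0.015 for Slc8a1, centred on 22 ERCC spike-ins -0.012 for Slc8a1, and in the FASTQ-derived table -0.011 for Atp1b2 and 0.073 for Fxyd1. The sign of the ratio changed between alternatives for Atp1b3, Fxyd1 and Slc8a1, and for Atp1b1 only without centring. It stayed negative for Atp1b2 in those run. There, -0.017 and -0.011 are smaller in size than the standard error from counting of 0.093, and the other values, -0.18 to -0.23, are larger. Slc8a2 had 0.32 with no filter.

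The share of the main isoform was 56.1% for Atp1b1-201, 55.8% for Atp1b2-201, 0 for Fxyd1-203 and 3.92% for Slc8a1-202 in the FASTQ-derived table. As a share of expected counts it was 97.8%, 89.8%, 42.2% and 26.4% for the same transcripts. The cause of the difference between the tables was not tested. Depth limits Slc8a2, whose isoforms and ratio rest on 49 and 34 counts.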
